A study of Mus musculus with 11 samples.

Results

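The S100 and annexin genes described here are 10 genes of calcium-binding proteins, 6 S100 genes (S100a4, S100a6, S100a8, S100a9, S100a10 and S100a11) and 4 annexin genes (Anxa1, Anxa2, Anxa3 and Anxa8). They were found by gene symbol among the 20284 named genes of the array, through the transcript accession that each probe carries. All 10 had at least 1 probe that passed the filter on dim probes, 13 probes in all, and the brightest probe of a gene over all arrays was taken as its main probe. S100a4, Anxa1 and Anxa8 had 2 probes each, and the other 7 genes had 1.

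Expression was measured on single-colour microarrays in otospheres, in the cochlear sensory epithelium (CSE) and in embryonic stem cells (ESCs). Otospheres are floating spheres grown from dissociated CSE cells, and the CSE is the strip of hair cells and supporting cells that lines the cochlear duct. Otospheres and CSE both came from ICR mice at postnatal day 1, with 20 cochleae of 10 pooled mice in a preparation. The otospheres had been cultured for 4 to 5 days, passaged once, cultured for another 4 to 5 days and filtered to leave the solid spheres. The ESC group holds 2 arrays of 2 different lines, G4-2 (ESC 1) and D3 (ESC 2), both at passage 13 and kept without feeder cells in serum with LIF, so that it has no replicate of a line. Of the 6 otosphere arrays, OS1 with OS2 and OS4 with OS5 differed by less than the noise between spots of a probe, at 0.946 and 0.433 times that noise, while the next closest pair of arrays within a group stood at 1.72 times. Each of these pairs was averaged and counted as 1 sample, which leaves 4 otosphere, 3 CSE and 2 ESC samples. Nothing in the labels says which samples came from separate preparations, so the p-values measure only the spread between these samples, which may be technical in part. In such bulk RNA, fewer cells of a type and less RNA per cell cannot be told apart.

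Between 55.1% and 71.6% of the spots of an array were well above the local background by the scanner's flag, and no spot was saturated. Values are given as log2 of the background-corrected, quantile-normalized signal, where a difference of 1 is a doubling. The level of one probe cannot be set against that of another. The arrays lay on 2 slides, with ESC 1, OS1 to OS3, CSE 1 and CSE 2 on the first and ESC 2, OS4 to OS6 and CSE 3 on the second, so that slide and ESC line cannot be told apart. The labels were set beside lists of markers. All 9 markers of supporting cells were well above background on every CSE sample, but so were 7 in each ESC sample. In CSE, 8 of them were higher than in ESCs and 1 was lower. Of 8 markers of pluripotent cells, 7 were higher in ESCs than in otospheres. The exception was Nanog, whose brightest probe read 8.50 and 8.26 in ESCs, 8.82 to 10.75 in otospheres and 9.41 to 10.34 in CSE. The paper lists Nanog among genes high in ESCs alone and did not detect the protein in otospheres, so this probe goes against the paper. All 7 markers of simple epithelium were higher in otospheres than in CSE, but these do not define otospheres. Sox2, which the paper detected in otospheres by RT-PCR and immunostaining, was lowest there, at 7.67 to 8.74. It was 10.85 to 11.20 in CSE and 12.50 to 12.67 in ESCs. The paper's own array analysis also placed Sox2 among the genes high in ESCs and CSE.

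S100 proteins are small calcium sensors with paired EF-hand loops that mostly act as dimers and change shape when they bind calcium. Annexins are a separate family that binds acidic phospholipids of membranes when calcium rises. The families meet in shared complexes, since S100a10 pairs with Anxa2 and S100a11 with Anxa1, while S100a8 and S100a9 pair with each other to form calprotectin, an abundant protein of neutrophils. In the cochlea the better-known calcium binders are the EF-hand buffers of hair cells, such as parvalbumin, oncomodulin and the calbindins, and S100b and S100a1 are used as markers of glia and supporting cells.

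The 6 S100 genes all lie on chromosome 3, in the S100 cluster, whereas Anxa1, Anxa2, Anxa3 and Anxa8 lie on chromosomes 19, 9, 5 and 14. Because several of the genes moved together, the 250 bases before the start of each gene were read from the RefSeq promoter table (build GRCm38.p6), which held 8 of the 10, all but S100a10 and Anxa3. The 6 sequences shown belong to the genes that the comparisons turn on, the first 4 higher in otospheres than in at least ESCs and the last 2 forming the calprotectin pair. Each is written from 5′ to 3′ on the strand of its gene, with matches to 4 motifs in capitals. The motifs were those of the factors AP-1, C/EBP and TEAD and the TATA box, searched on both strands.
S100a6 (chr3:90612644-90612893, plus strand): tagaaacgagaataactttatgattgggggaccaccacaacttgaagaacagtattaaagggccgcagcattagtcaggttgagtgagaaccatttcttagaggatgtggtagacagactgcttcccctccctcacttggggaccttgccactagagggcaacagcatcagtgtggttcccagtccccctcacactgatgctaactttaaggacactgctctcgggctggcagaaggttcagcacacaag
S100a11 (chr3:93520246-93520495, plus strand): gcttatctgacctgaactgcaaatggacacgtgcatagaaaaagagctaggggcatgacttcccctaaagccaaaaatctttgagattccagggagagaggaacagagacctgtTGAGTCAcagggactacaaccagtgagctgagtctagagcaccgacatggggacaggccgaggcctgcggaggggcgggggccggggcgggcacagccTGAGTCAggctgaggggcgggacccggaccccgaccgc
Anxa1 (chr19:20390672-20390921, minus strand): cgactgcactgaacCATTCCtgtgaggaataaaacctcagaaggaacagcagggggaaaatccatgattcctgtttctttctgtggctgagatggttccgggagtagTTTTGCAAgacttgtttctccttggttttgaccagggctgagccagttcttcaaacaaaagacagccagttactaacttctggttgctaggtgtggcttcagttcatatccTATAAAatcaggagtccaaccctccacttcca
Anxa2 (chr9:69453433-69453682, plus strand): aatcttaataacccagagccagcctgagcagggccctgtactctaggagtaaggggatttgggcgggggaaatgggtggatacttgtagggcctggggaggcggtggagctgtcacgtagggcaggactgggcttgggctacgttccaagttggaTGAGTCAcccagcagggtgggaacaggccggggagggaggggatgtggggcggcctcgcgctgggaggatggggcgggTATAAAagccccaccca
S100a8 (chr3:90668821-90669070, plus strand): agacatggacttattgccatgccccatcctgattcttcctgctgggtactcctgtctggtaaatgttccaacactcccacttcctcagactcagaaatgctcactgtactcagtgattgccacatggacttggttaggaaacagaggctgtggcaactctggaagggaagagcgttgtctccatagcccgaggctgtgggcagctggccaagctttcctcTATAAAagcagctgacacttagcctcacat
S100a9 (chr3:90695722-90695971, minus strand): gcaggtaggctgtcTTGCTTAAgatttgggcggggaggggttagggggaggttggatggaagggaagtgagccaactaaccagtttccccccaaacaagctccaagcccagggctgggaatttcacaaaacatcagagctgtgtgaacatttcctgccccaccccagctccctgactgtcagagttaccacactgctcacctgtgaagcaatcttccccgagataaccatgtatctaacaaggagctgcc

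The AP-1 letters, TGANTCA, stood in 2 of the 8 windows, in S100a11 with matches that begin 136 and 38 bases before the start and in Anxa2 with one that begins 95 bases before it. They stood in 6.75% of the 32851 windows of the table. The C/EBP letters, TTGCNNAA, were found in S100a9, 236 bases before the start, and on the opposite strand in Anxa1, 143 bases before it, and 9.56% of all windows held them. The TEAD letters, GGAATG, were found in Anxa1 alone, on the opposite strand, and in 12.6% of all windows. The TATA box letters, TATAAA, were found in 4 of the 8 windows, those of S100a4, S100a8, Anxa1 and Anxa2, against 12.4% of all windows. No motif overlapped another, and the windows of S100a6 and Anxa8 held none of these letters. A match of letters is a description of the window and shows no binding.

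**Figure D1:**
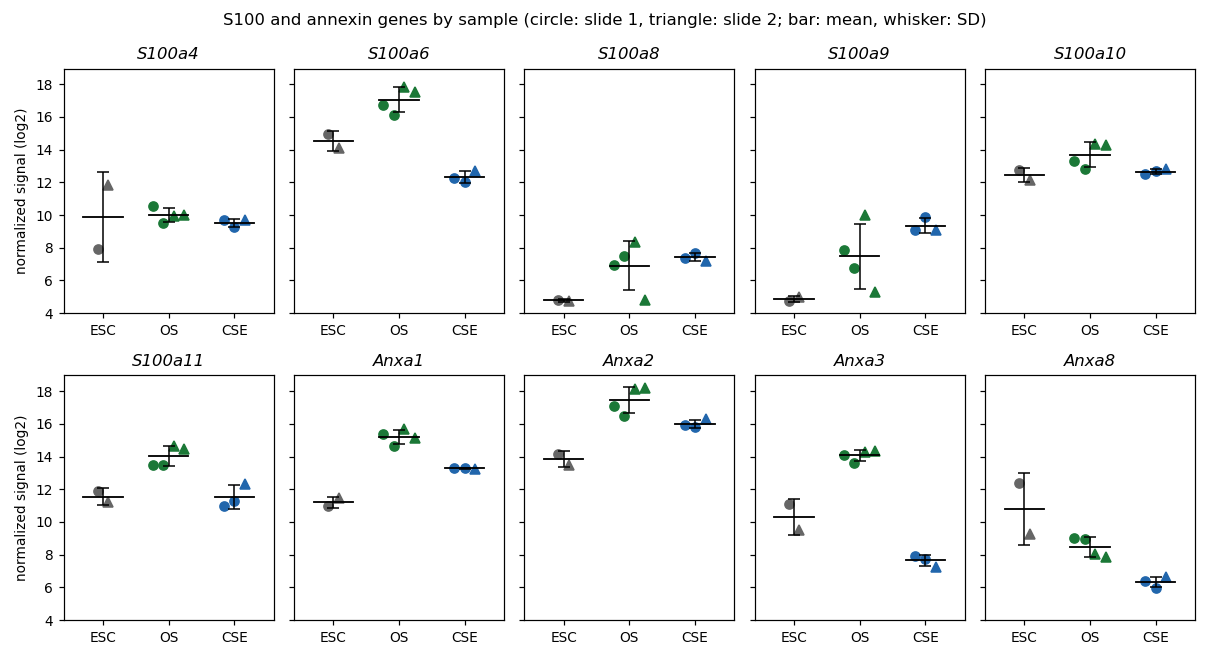
Normalized signal (log2, vertical axis, shared) of the main probe of each of the 10 genes in ESCs, otospheres (OS) and CSE. Each point is 1 sample, with circles for slide 1 and triangles for slide 2, and the bar and whisker are the mean and SD. The otosphere points of S100a6, S100a11, Anxa1, Anxa2 and Anxa3 lie above all points of both other groups, whereas 1 otosphere point of S100a8 lies at the level of the ESCs.

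The first question was how the genes differed between the otospheres and the tissue they were grown from. S100a6, S100a11, Anxa1 and Anxa3 were upregulated in otospheres relative to CSE, from 3.84-fold for Anxa1 to 86.4-fold for Anxa3, and none of the 10 was called lower. These are 4 of 10 genes with a limma adjusted p under 0.05, where 4.84% of the 47997 probes tested were called higher and 6.19% lower. The probes tested include those without a gene symbol, whereas each of the 10 is a named gene read on its brightest probe. The levels of 7 genes did not overlap, with every otosphere sample above every CSE sample, against 10.8% of all probes (12.7% the other way). The median difference of the 10 genes was 1.70 on the log2 scale, and that of all probes was 0.02.

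Anxa3, an annexin first described as an inhibitor of phospholipase, showed the widest separation. Its level was 14.10 in OS1-2, 13.59 in OS3, 14.28 in OS4-5 and 14.35 in OS6. In CSE 1, 2 and 3 it was 7.93, 7.76 and 7.25. The 4 otosphere samples lay within 0.77 of each other and 5.66 log2 units or more above the brightest CSE sample, and the ESC samples, at 11.10 and 9.53, lay between the groups. The difference from CSE was 6.43 ± 0.37 (SE; adjusted p = 4.58e-05, limma), which is 86.4-fold. The difference from ESCs was 3.76 ± 0.42 (adjusted p = 2.63e-04, limma), or 13.6-fold. CSE minus ESCs was -2.67 (adjusted p = 0.00203, limma), so that the order otospheres, ESCs, CSE held without overlap.

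S100a6 (calcyclin), a dimer of the cytoplasm and plasma membrane that is often found in dividing epithelial cells and fibroblasts, followed the same order. It stood at 16.74 in OS1-2, 16.15 in OS3, 17.82 in OS4-5 and 17.51 in OS6. In CSE 1 to 3 it stood at 12.29, 12.00 and 12.71, and in the ESCs at 14.95 and 14.08. None of these groups overlapped. Otospheres exceeded CSE by 4.72 ± 0.41 (SE; adjusted p = 2.61e-04, limma), a 26.3-fold difference, and exceeded ESCs by 2.54 ± 0.47 (adjusted p = 0.00356, limma), a 5.80-fold difference. CSE minus ESCs was -2.18 (adjusted p = 0.00972, limma). Over the 9 samples the levels of S100a6 and Anxa3 had a Pearson correlation of 0.98, given as a description since the samples of a group share their source.

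S100a11, which binds annexin 1 and has roles in the growth of keratinocytes, was 13.49, 13.48, 14.62 and 14.48 in OS1-2, OS3, OS4-5 and OS6. In the 3 CSE samples it was 10.98, 11.29 and 12.34, and in the 2 ESC samples 11.91 and 11.20. The otosphere samples were above all others, and the CSE and ESC samples were intermixed. The difference from CSE was 2.48 ± 0.42 (SE; adjusted p = 0.00607, limma), or 5.59-fold, and that from ESCs was 2.47 ± 0.48 (adjusted p = 0.00453, limma), or 5.53-fold. CSE and ESCs differed by -0.02, with a 95% interval from -1.16 to 1.12.

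Its partner Anxa1, a mediator of the resolution of inflammation that is induced by glucocorticoids, had the closest CSE samples of the genes described so far. The level was 15.38 in OS1-2, 14.67 in OS3, 15.70 in OS4-5 and 15.14 in OS6. The CSE samples were at 13.30, 13.28 and 13.25, and the ESC samples at 10.98 and 11.46. Here the order was otospheres, CSE, ESCs, again without overlap. Otospheres exceeded CSE by 1.94 ± 0.25 (SE; adjusted p = 0.00153, limma), 3.84-fold, and CSE exceeded ESCs by 2.06 ± 0.29 (adjusted p = 9.28e-04, limma), 4.16-fold. The second probe of Anxa1 gave 2.07 (adjusted p = 0.00143) and 1.71 (adjusted p = 0.00324) for the same comparisons in limma. Within slide 1 alone, the otosphere and CSE levels of the main probe differed by 1.73 with an adjusted p of 0.0530 in limma.

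Anxa2 and its partner S100a10 form a tetramer at the inner face of the plasma membrane, in which S100a10 (p11) keeps its shape without calcium. Both were higher in each otosphere sample than in any CSE sample, but neither passed the test. Anxa2 stood at 17.09, 16.51, 18.11 and 18.18 in OS1-2, OS3, OS4-5 and OS6 and at 15.96, 15.81 and 16.28 in CSE 1 to 3, a difference of 1.45 ± 0.41 (SE; adjusted p = 0.0567, limma). Its 95% interval ran from 0.52 to 2.39. S100a10 stood at 13.32, 12.79, 14.34 and 14.30 in the same otosphere samples and at 12.50, 12.67 and 12.79 in CSE, a difference of 1.04 ± 0.38 (SE; adjusted p = 0.139, limma). OS3 and CSE 3 were equal for S100a10 to the 2 decimals given, so that the separation there was slight. Without OS3 both genes passed the threshold, with an adjusted p of 0.0135 for Anxa2 and 0.0305 for S100a10 in limma.

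Anxa2 was 14.17 and 13.48 in the 2 ESC samples and higher in otospheres by 3.64 ± 0.47 (SE; adjusted p = 5.31e-04, limma), 12.5-fold. It was also higher in CSE than in ESCs, by 2.19 (adjusted p = 0.00945, limma). S100a10 was 12.74 and 12.12 in ESCs, which lies 1.26 ± 0.43 below the otospheres (adjusted p = 0.0623, limma), with a 95% interval of 0.27 to 2.24. It passed there with slide as a block (adjusted p = 0.0482, limma) and without OS3 (0.0127). CSE minus ESCs was 0.22 for S100a10, with a 95% interval of -0.82 to 1.26. Over the 9 samples the levels of S100a10 and Anxa2 correlated with r = 0.86, those of S100a11 and Anxa1 with r = 0.81, and those of Anxa1 and Anxa2, which share no complex, with r = 0.95.

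Anxa8, an annexin of some epithelia and of early development, was the only gene whose highest level was in an ESC sample while its otosphere samples all exceeded CSE. It was 12.37 in ESC 1 and 9.25 in ESC 2. In OS1-2, OS3, OS4-5 and OS6 it was 9.04, 8.99, 8.02 and 7.85, and in CSE 1 to 3 it was 6.39, 5.99 and 6.62. The 3 groups did not overlap, but the ESC lines were 3.12 log2 units apart, with ESC 2 only 0.21 above the brightest otosphere sample. Otospheres minus CSE was 2.14 ± 0.66 (SE; adjusted p = 0.0757, limma), and otospheres minus ESCs was -2.33 ± 0.74 (adjusted p = 0.0458, limma). CSE minus ESCs was -4.47 (adjusted p = 0.00271, limma). The second probe of Anxa8 gave 1.00 (adjusted p = 0.328), -2.13 (adjusted p = 0.0268) and -3.13 (adjusted p = 0.00546) for these comparisons in limma. The call against ESCs on the main probe was lost without any one of the 4 otosphere or 3 CSE samples, with differences from -2.52 to -2.12 and adjusted p from 0.0546 to 0.0997 in limma. Without ESC 1 the difference was -0.77 (adjusted p = 0.341, limma).

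S100a4 (metastasin), a gene of motile and mesenchymal cells, passed no test. Its otosphere levels were 10.56, 9.54, 9.92 and 10.01, and its CSE levels were 9.68, 9.24 and 9.68, which overlap. The difference was 0.47 ± 0.75 (SE; adjusted p = 0.833, limma), with a 95% interval from -1.23 to 2.18, and the second probe gave 0.38. The ESC lines lay on either side of all other samples, at 7.94 in ESC 1 and 11.84 in ESC 2. The mean of this pair says little of either line, and otospheres minus ESCs was -1.84 without ESC 1 (adjusted p = 0.00915, limma) and 2.07 without ESC 2 (adjusted p = 0.00546, limma). In these fits the lone ESC sample is assumed to vary like the samples of the other groups.

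**Figure D2:**
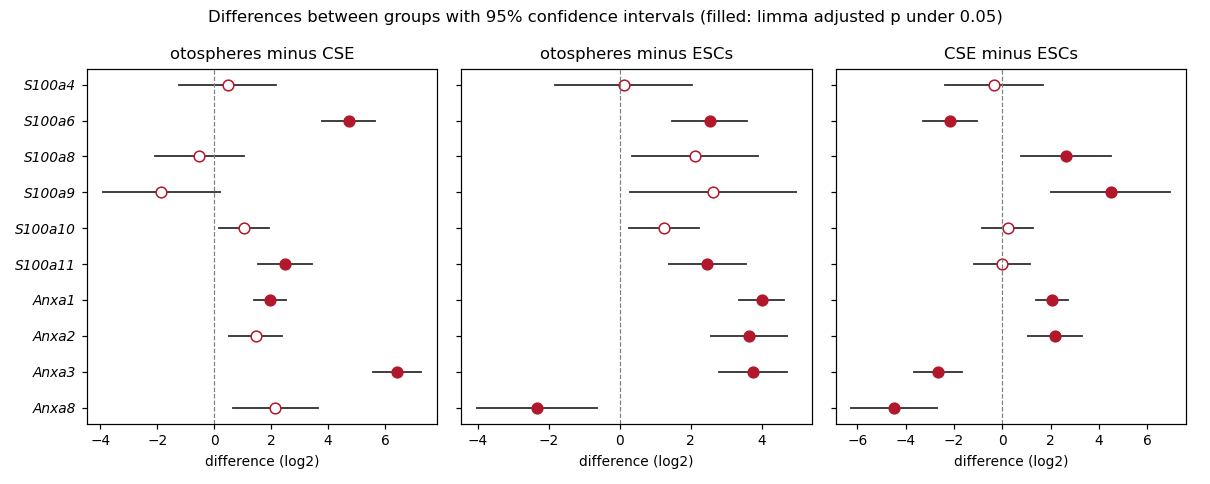
Difference between group means (log2, horizontal axis) of the main probe of each gene for the 3 comparisons, with 95% confidence intervals as lines. Filled points have a limma adjusted p under 0.05, and they are 4 genes higher for otospheres minus CSE, 5 higher and 1 lower for otospheres minus ESCs, and 4 higher and 3 lower for CSE minus ESCs. Open points with intervals that leave out 0, such as Anxa2 for otospheres minus CSE, missed the threshold after adjustment over all probes.

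S100a8 and S100a9, the 2 chains of calprotectin, stood apart from the other 8 genes. S100a8 was 6.96 in OS1-2, 7.49 in OS3 and 8.34 in OS4-5 but 4.82 in OS6, against 7.36, 7.70 and 7.21 in CSE. S100a9 was 7.89, 6.75 and 9.98 in the same 3 otosphere samples and 5.28 in OS6, against 9.06, 9.87 and 9.08 in CSE. Neither was well above background on the OS6 array or on the ESC arrays, where S100a8 read 4.83 and 4.73 and S100a9 read 4.73 and 4.97. Both were well above background on the other 5 otosphere arrays and on all 3 CSE arrays. OS6 therefore had the levels of a sample without measurable S100a8 or S100a9, and the other otosphere samples ran from below to above the CSE range. The levels of the 2 genes correlated with r = 0.92 over the 9 samples.

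For S100a8 the otosphere and CSE means differed by -0.53 ± 0.69 (SE; adjusted p = 0.785, limma), and without OS6 by 0.17, the opposite sign. For S100a9 they differed by -1.86 ± 0.91 (SE; adjusted p = 0.282, limma), with a 95% interval from -3.92 to 0.20. This S100a9 difference was -1.13 without OS6. Without OS4-5, the brightest otosphere sample, it was -2.70 and S100a9 was called lower, with an adjusted p of 0.0343 in limma. Against ESCs the fold can only be bounded, because no ESC array measured either gene. By such a bound the otosphere mean was 2.87-fold higher for S100a8 (adjusted p = 0.0764, limma) and 4.26-fold higher for S100a9 (adjusted p = 0.0946, limma), neither past the threshold. That mean includes OS6, where neither gene was measurable, so these 2 folds are not strict minimums. CSE was at least 4.12-fold higher for S100a8 (adjusted p = 0.0397, limma) and at least 15.5-fold higher for S100a9 (adjusted p = 0.0135, limma). The S100a8 call for CSE minus ESCs was lost without any 1 CSE sample (adjusted p from 0.0767 to 0.0954), without OS1-2 (0.0583) and without ESC 1 or ESC 2 (0.124 and 0.136, limma). That of S100a9 was lost without ESC 1 (0.0659) or ESC 2 (0.0546, limma). Without OS6, S100a8 and S100a9 passed for otospheres minus ESCs, with an adjusted p of 0.00119 and 0.0164 in limma. Each bound sets the group mean against the lowest signal that counted as well above background on the ESC arrays. The p-values beside the bounds are those of the unbounded limma differences.

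Markers of other cell types were set beside this pair. Of 11 macrophage markers measured, 7 were lower in otospheres than in CSE and 1, Cd14, was higher. Cx3cr1, a receptor of macrophages and microglia, was 5.58, 5.56, 5.27 and 5.38 in the otosphere samples and 10.33, 9.93 and 10.07 in CSE, and Tyrobp, a signalling adaptor of myeloid cells, was 9.59, 9.47 and 9.89 in CSE. Tyrobp was well above background in OS3 alone among the otospheres, at 6.83. The mean over the 11 genes ran from 8.38 to 8.71 in CSE, from 6.78 to 7.60 in otospheres and from 6.30 to 6.52 in ESCs. The summed signal, in which Cd14 weighs most in otospheres other than OS6, ran from 13.19 to 13.46, from 12.53 to 14.50 and from 11.40 to 11.52 in the same order, on the log2 scale. Cd14, a co-receptor of Tlr4, was 14.32, 12.92, 12.54 and 10.31 in otospheres and 7.31, 6.42 and 7.34 in CSE.

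Of 11 neutrophil markers measured, 1, Ltf, was higher in otospheres than in CSE and none was lower. The mean over this list ran from 8.11 to 8.83 in otospheres, from 7.43 to 7.79 in CSE and from 7.15 to 7.25 in ESCs. The summed signal, most of it Csf3r, ran from 14.78 to 15.94 in otospheres, from 14.53 to 16.51 in CSE and from 14.54 to 14.63 in ESCs. Ltf, which encodes the secreted iron-binding lactotransferrin, was 10.39, 11.40, 10.78 and 9.59 in OS1-2, OS3, OS4-5 and OS6 and 5.73, 5.75 and 5.48 in CSE. Camp, the gene of an antimicrobial peptide, was 12.51, 12.21, 10.77 and 7.59 in the otospheres, also lowest in OS6. The defining genes Cxcr2 and Retnlg were well above background on no otosphere array, and Cxcr2 on no CSE array. Of the granule genes, Elane and Prtn3 were well above background on all 6 otosphere and 3 CSE arrays, Mpo on 4 and 2, Mmp8 on 3 and 0 and Ngp on 2 and 2. Itgam, Csf3r and Elane were bright in ESCs too, at no less than 11.65, 14.23 and 10.03. Prtn3 and Mpo were each well above background on 1 ESC array.

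Some fibroblast and mesenchyme markers were also low in OS6, where 7 of the 10 measured lay below every other otosphere sample. The same held for 5 of the 11 neutrophil markers and 5 of the 11 macrophage markers. Of these, C1qa (4.76 against 4.89 in the lowest other otosphere sample), Ptprc (5.65 against 5.69) and Fcer1g (6.77 against 6.81) differed little. So did Mpo (5.23 against 5.37) and Mmp8 (5.13 against 5.27), and C1qa was well above background on no otosphere array. The gaps of Camp, Ltf, Prtn3, Cd14 and Aif1 were wider. The share of all probes that were lowest in OS6 was not counted, so the counts alone say little of these lists. Col3a1, a collagen of loose connective tissue, was 13.96, 15.59 and 11.82 in OS1-2, OS3 and OS4-5 but 6.51 in OS6, and Col1a2 was 15.17, 15.89 and 13.30 but 8.61. Pdgfrb was 11.59, 11.92 and 10.18 but 5.58. The exceptions among the mesenchyme markers were Dcn (15.78, 16.93 and 15.31, with 15.51 in OS6), Lum (14.90, 14.39 and 15.24, with 15.05) and Thy1 (11.64, 11.10 and 13.26, with 12.76). The mean over the 10 genes of this list ran from 8.71 to 12.47 in otospheres, from 12.21 to 12.84 in CSE and from 7.50 to 7.94 in ESCs. The part of these cells in the levels of S100a8 and S100a9 was not tested.

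**Figure D3:**
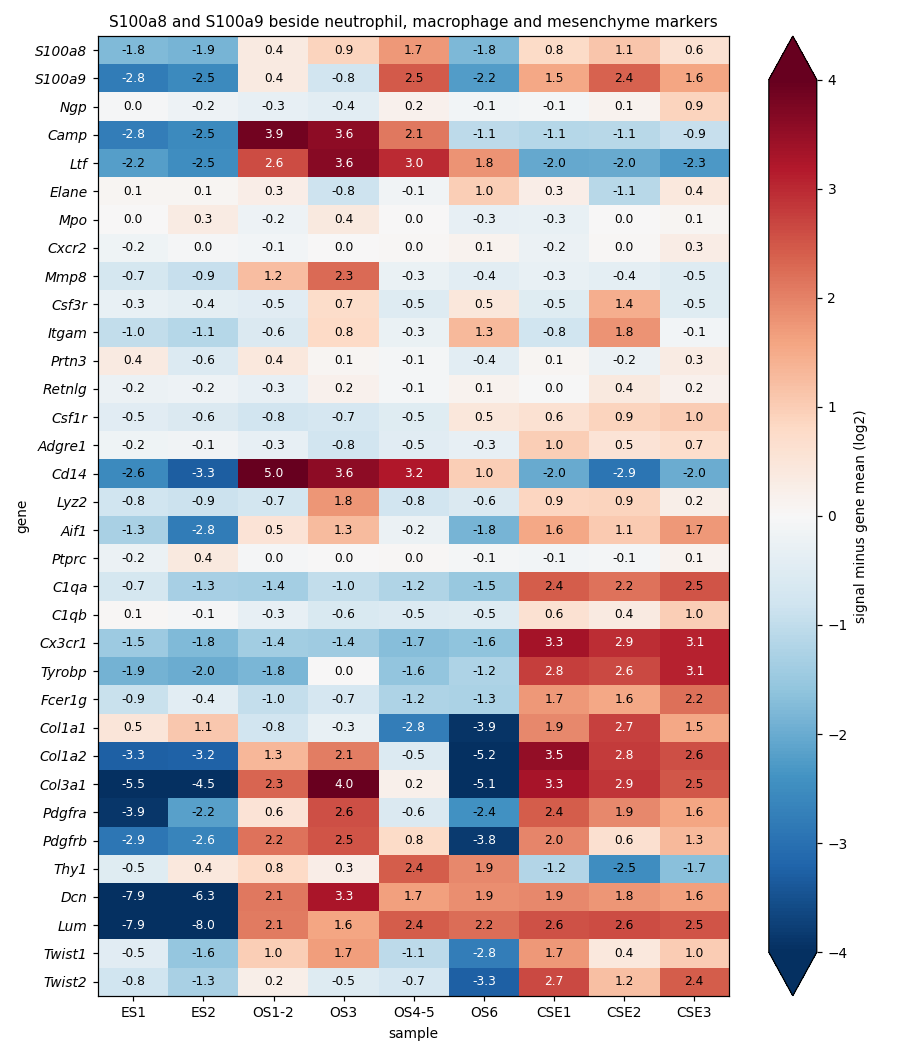
Signal of each gene minus its mean over the 9 samples (log2, colour and printed value, colour clipped at 4) for S100a8, S100a9 and markers of neutrophils (Ngp to Retnlg), macrophages (Csf1r to Fcer1g) and mesenchyme (Col1a1 to Twist2), with samples in columns. S100a8 and S100a9 are low in both ESC samples and in OS6, where Col1a2, Col3a1, Pdgfra and Pdgfrb are low too but Dcn, Lum and Thy1 are not, and the macrophage markers Tyrobp, C1qa and Cx3cr1 are highest in the 3 CSE samples.

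The second comparison set otospheres against ESCs. S100a6, S100a11, Anxa1, Anxa2 and Anxa3 were higher in otospheres, from 5.53-fold for S100a11 to 16-fold for Anxa1, and Anxa8 was lower. These 5 higher and 1 lower of 10 compare with 12.1% of all probes called higher and 15.6% called lower. With the probes of each named gene averaged, 3626 of 18565 genes were called higher and 4152 lower, a larger share than among all probes. Levels in 7 of the 10 genes were higher without overlap, against 20.7% of probes, and in 1 gene lower without overlap, against 25.4%. The separation was slight for S100a10 and S100a9, with the lowest otosphere sample 0.047 and 0.31 above the brighter ESC sample, and for S100a9 neither of these samples was well above background. The median difference was 2.50, or 2.28 with S100a8 and S100a9 at their bounds, and that of all probes was -0.03. This comparison and the first share the otosphere samples.

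The third comparison, of CSE with ESCs, gave no common direction. S100a8, S100a9, Anxa1 and Anxa2 were higher in CSE and S100a6, Anxa3 and Anxa8 were lower, 4 and 3 of 10, where 13.2% of probes were called higher and 15.6% lower. The levels of these same 7 genes did not overlap, 4 higher against 23.7% of all probes and 3 lower against 28.5%. With the probes of each named gene averaged, 3993 of 18565 genes were called higher and 4092 lower, again a larger share than among all probes. The median difference was 0.10, and that of all probes was -0.06.

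The otosphere samples of the 2 slides also differed. OS1 to OS3 all lay on slide 1 and OS4 to OS6 on slide 2, so slide and otosphere content cannot be told apart. The paper reports raised hair cell markers in OS4 to OS6. Here the mean over 8 hair cell markers was 7.62 in OS1-2, 6.88 in OS3, 8.55 in OS4-5 and 9.02 in OS6. S100a6, S100a10, S100a11 and Anxa2 were higher in the 2 samples of slide 2 (OS4-5 and OS6) than in the 2 of slide 1, by 1.22, 1.27, 1.07 and 1.34 on the log2 scale. Anxa8 went the other way, at -1.08. In CSE the same slide difference was 0.56, 0.21, 1.21, 0.39 and 0.43 for these 5 genes, with 1 CSE sample on slide 2. The otosphere minus CSE difference of Anxa2 was 0.91 on slide 1 and 1.86 on slide 2, and that of Anxa8 was 2.82 and 1.31. A limma model of the change in this difference between slides called none of the 10 genes and 0% of the 47995 probes tested after adjustment. At an unadjusted p under 0.05 it picked S100a10, Anxa2, Anxa3 and Anxa8, 4 of 10, with p values of 0.0301, 0.0495, 0.0283 and 0.00442, and 6.07% of all probes. Within slide 1 alone, Anxa8 passed for otospheres minus CSE and Anxa1 did not, unlike in the fit of all samples. There, 4 of the 10 genes were called higher in otospheres than in CSE, against 2.17% of all probes. Within slide 2 they were 7, against 3.81%, but slide 2 holds 1 CSE and 1 ESC sample, so that the spread there comes from 2 otosphere samples only.

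Other genes of both families were looked at by fixed lists. Of 10 other S100 genes, 2 were higher in otospheres than in CSE, 2 were lower and 6 did not pass the test, with a median difference of 0.68. S100a14, an S100 protein of epithelia, was 11.39, 10.63, 11.90 and 11.97 in otospheres and 8.17, 7.69 and 9.07 in CSE, a difference of 3.16 (adjusted p = 0.00171, limma). S100z was at least 1.89-fold higher (adjusted p = 0.0269, limma), since no CSE array had it well above background. S100b, the glial and supporting-cell S100 gene, went strongly the other way, from 15.01, 14.18 and 14.70 in CSE to 10.56, 10.87, 10.38 and 10.26 in otospheres, a difference of -4.12 (adjusted p = 4.40e-05, limma). S100b was still at least 35.1-fold higher in otospheres than in ESCs (adjusted p = 3.11e-06, limma), where no array measured it. S100a16 differed by -0.80 (adjusted p = 0.0376, limma). S100a1 differed between otospheres and CSE by 1.46 without passing the test (adjusted p = 0.107, limma), and in otospheres it exceeded ESCs by 6.30 (adjusted p = 8.00e-05, limma).

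Of 8 other annexin genes, 4 were higher in otospheres than in CSE, none was lower and 4 did not pass the test, with a median of 1.11. Anxa7 (synexin), which promotes the fusion of membranes in secretion, differed by 1.68 (adjusted p = 0.00869), Anxa11 by 1.65 (adjusted p = 0.0287), Anxa4 by 1.12 (adjusted p = 0.00514) and Anxa9 by 1.10 (adjusted p = 0.0397), all in limma. Anxa5, the annexin used to stain exposed phosphatidylserine, was higher without overlap, at 15.83, 15.16, 16.69 and 16.34 against 14.92, 14.45 and 14.74, and its difference of 1.30 did not pass (adjusted p = 0.0638, limma). Anxa10 was well above background on no array and Anxa13 on 1 otosphere and 1 CSE array, so that neither was measured in most samples. Against ESCs, Anxa4, Anxa5 and Anxa6 were higher in otospheres, by 3.14, 4.69 and 2.21.

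**Figure D4:**
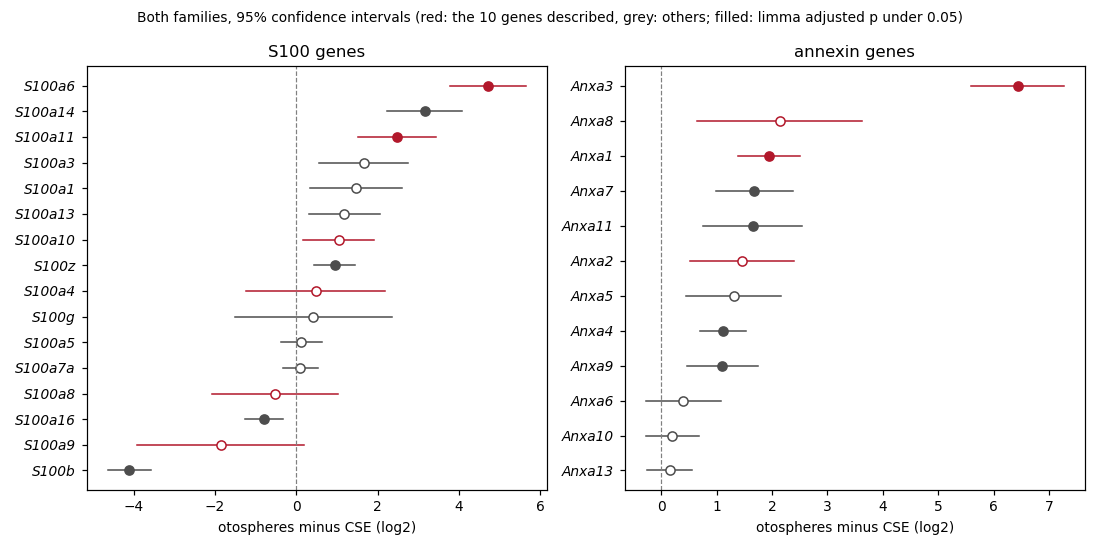
Difference between otospheres and CSE (log2, horizontal axis) for all S100 genes (left) and annexin genes (right) with a probe that passed the filter, sorted by size, with 95% confidence intervals. Red marks the 10 genes described and grey the others of each family, and filled points have a limma adjusted p under 0.05. S100 genes lie on both sides of 0, from -4.12 for S100b to 4.72 for S100a6, and the annexin genes reach 6.43 for Anxa3.

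Among receptors and binding partners of these proteins, 6 of the 14 genes measured were higher in otospheres than in CSE, none was lower and 8 did not pass the test, with a median of 1.15. Plau, the urokinase that acts in plasminogen activation at the cell surface, was 8.54, 9.22, 9.61 and 10.06 in otospheres and not well above background on any CSE array, at least 18.6-fold higher (adjusted p = 1.91e-04, limma). Dysf, a membrane-repair protein that binds Anxa1 and Anxa2, differed by 2.93 (adjusted p = 0.00558), and Myh9, the nonmuscle myosin bound by S100a4, by 2.04 (adjusted p = 0.00487), both in limma. The crosslinking enzyme Tgm2 differed by 2.82 (adjusted p = 0.0172) and the calprotectin receptor Tlr4 by 2.13 (adjusted p = 0.00193), again in limma. S100pbp differed by 1.10 (adjusted p = 0.00367, limma). It is named for binding S100P, which is not among the genes described, and it is 1 of the 6 counted as higher. Tlr4 was 8.98, 8.35, 9.17 and 9.06 in otospheres and 7.03, 6.18 and 7.08 in CSE, and OS6, where calprotectin was not measurable, had it at the level of the others. Ahnak, a scaffold of the Anxa2 and S100a10 complex, differed by 1.85 without overlap (adjusted p = 0.0560, limma), and Ager, the RAGE receptor, by -0.53 (adjusted p = 0.178, limma).

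The EF-hand buffers and sensors of the cochlea were split. Of 10 such genes, 2 were higher in otospheres than in CSE, 4 were lower and 4 did not pass the test. Parvalbumin (Pvalb) and the calbindins Calb1 and Calb2 (calretinin) differed by -3.79, -2.32 and -1.36, and the calmodulin gene Calm3 by -0.93. Oncomodulin (Ocm), an outer hair cell protein, was higher by 3.40 (adjusted p = 0.00545, limma), with 9.97, 11.58, 11.91 and 12.02 in otospheres against 8.06, 6.97 and 8.88 in CSE. Capns1, the small subunit of calpains, was higher by 1.13 (adjusted p = 0.00771, limma).

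Epithelial markers of the otospheres were set beside the members. All 7 simple epithelium markers were higher than in CSE, with a median difference of 3.19, and Krt8, a keratin of simple epithelia, was 16.42, 15.13, 17.34 and 17.17 in otospheres and 10.91, 11.70 and 12.56 in CSE. The mean over these 7 genes ran from 13.38 to 14.71 in otospheres, from 11.16 to 11.81 in CSE and from 11.58 to 12.48 in ESCs, and all were well above background in every sample. Of 9 stratified epithelium markers measured, 3 were higher (Krt17 by 6.52, Sprr1a by 4.53 and Ivl at least 2.14-fold, with adjusted p of 0.00517, 0.00243 and 0.00926 in limma) and none lower, with the basal keratins Krt5 and Krt14 at -0.12 and -0.19. In the opposite direction, 8 of 9 supporting cell markers and 5 of 6 erythroid markers were lower in otospheres than in CSE. The part of these differences in cell makeup in the levels of the S100 and annexin genes was not tested.

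The genes whose levels over the 9 samples were most like those of the members were found by Pearson correlation with the main probes of 18565 genes, as a description. For S100a6 the closest was Msn (moesin, which links actin to the membrane) with r = 0.992, and for Anxa3 they were Stx11, Loxl4 and Msln with r from 0.987 to 0.990. Anxa2 was closest to the cation channel gene Trpv4 (r = 0.995) and Anxa1 to Fads3 (r = 0.995). S100a10 was closest to the stress-response factor gene Atf4 (r = 0.985), S100a11 to Acbd4, Bik and the actin crosslinker gene Actn4 (r from 0.985 to 0.989), Anxa8 to Chchd10 (r = 0.985) and S100a4 to Alg13 (r = 0.981). The closest gene of S100a9, H3f3b, reached 0.939. The 9 samples fall into 3 groups and are not independent.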

How the data were processed

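The deposited scanner files were written by Feature Extraction 10.7.3.1 and give, spot by spot, a median intensity for signal and for local background. They also give a background-subtracted intensity. A separate deposited table gives log2 values that the authors had background-corrected, quantile-normalized and filtered. The values used here start from the median intensities, with normexp correction (offset 16; limma 3.58.1, R 4.3.3), log2 conversion, quantile normalization over 11 arrays and averaging of repeated spots after removal of flagged outliers. Dim probes were dropped unless at least 2 arrays showed them 10% or more above the 95th percentile of the 308 negative controls (47997 of 55681 remained). A RefSeq gene table gave symbols to 26762 probes from their accessions.

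The 9 samples (4 otosphere, 3 CSE and 2 ESC) entered a single limma fit of group means. P-values were adjusted by Benjamini-Hochberg across all remaining probes, and a call needs an adjusted value under 0.05. A fit of group by slide gave the change in the otosphere and CSE difference between the 2 slides. The fitting was tested on simulated data. The alternatives were other offsets, scaling, filters, probe rules, blocks by slide or replicate number, single slides and left-out samples. The 10 genes, the gene lists and the motifs were chosen with earlier results of these data known. Named besides the 10 genes are list genes past the threshold, defining markers and genes among the 3 most correlated with each of the 10, which for S100a8 are not reported here. Which arrays received 50 ng and which 100 ng of RNA is not given in the sources used here. The number of arrays limits the precision.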

Additional observations from a re-analysis of the deposited data

How the results depend on the processing

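Over 21 alternatives for the 10 genes, the otosphere and CSE comparison kept its call and direction in 193 results, gained a call in 15, lost it in 1 (Anxa1 within slide 1) and turned sign in 1. Otospheres minus ESCs kept 176, gained 15, lost 14 (12 of Anxa8, 2 of S100a6) and turned 5, and CSE minus ESCs kept 182, gained 2, lost 16 and turned 10. The turned signs were all in genes without a call in the comparison as reported. With single samples left out, the number of genes higher in otospheres than in CSE was 4 to 6 (6 without OS3) and that of genes lower 0 to 1 (1 without OS4-5), and within slide 2 there were 7 higher. Nothing in the labels says whether the replicate numbers pair the samples. Deviations of otosphere and CSE arrays with the same number correlated at 0.356, -0.341 and -0.393, which cannot decide it with 3 CSE arrays around 1 mean. A fit with the replicate number as a block and every array separate called 5 higher and 1 lower (S100a9). For otospheres minus ESCs, 8 genes were higher with every array separate. Genes lower there were 0 with an offset of 50, the deposited table, no filter or the replicate block, 2 within slide 2, and 0 to 1 with samples left out, since Anxa8 lost its call without any single otosphere or CSE sample or ESC 1. S100a6 lost it at the 75th percentile (adjusted p = 0.0521) and within slide 1 (0.0533, limma). For CSE minus ESCs, 2 genes were higher without ESC 1 and 2 without ESC 2 (range 2 to 4). S100a8 lost its call there in 9 alternatives, S100a9 in 3, Anxa2 in 2 (without ESC 2 and at the 75th percentile), S100a6 without ESC 1 and Anxa8 in the deposited table. In otospheres minus ESCs, S100a4 turned to -0.042 at the 75th percentile scaling, -1.88 within slide 2 (adjusted p = 0.00680, limma) and -0.020 for the mean of its probes, and ranged from -1.84 to 2.07 with samples left out. In CSE minus ESCs, S100a4 was 1.52 within slide 1 and -2.31 to 1.59 with samples left out. S100a10 was -0.59 at the 75th percentile, -0.16 within slide 1 and -0.093 to 0.53 with samples left out. S100a11 was 0.10 with slide as a block, 1.14 within slide 2, which sets 1 CSE against 1 ESC sample, and -0.42 to 0.34 with samples left out. The median of the 10 genes was -0.51 at the 75th percentile and -0.14 to 0.75 with samples left out. S100a8 in otospheres minus CSE was -1.004 to 0.17 with samples left out, the latter without OS6. Scaling to the 75th percentile moved the median of all probes to -0.31 for otospheres minus ESCs and -0.28 for CSE minus ESCs. Probes called higher in otospheres than in CSE ranged from 1043 within slide 1 to 3682 with every array separate, against 2321, and those lower from 1341 to 4276, against 2973. In the deposited table the Anxa8 values are divided by the number of spots of its main probe, as described under Other observations. The cause of the other changes was not tested.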

Other observations

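In the deposited log2 table, probes spotted more than once carried values divided by their number of spots. Among probes with a mean log2 signal over 8, the deposited value divided by that from the scanner files had a median of 1.01 for 17232 probes spotted once, 0.502 for 18 probes spotted 2 times and 0.100 for 209 probes spotted 10 times, with a range of 0.0970 to 0.103 in the last. The main probe of Anxa8 is spotted 10 times. It reads 1.23 in ESC 1, 0.887 to 0.891 on OS1 to OS3 and 0.54 to 0.62 in CSE in that table, against 12.37, 8.99 to 9.06 and 5.99 to 6.62 from the scanner files. The otosphere minus CSE difference of Anxa8 is accordingly 0.25 in the table and 2.14 from the scanner files. The main probes of the other 9 genes are spotted once.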
